A study of Homo sapiens with 12 samples.

Results

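The transcripts of 10 dual-specificity phosphatase (DUSP) genes were followed in 12 libraries labelled Jurkat, an established human T-cell leukemia line. The genes were DUSP1, DUSP2, DUSP4, DUSP5, DUSP6, DUSP7, DUSP10, DUSP11, DUSP12 and DUSP16. They were picked by gene name from a table of 60671 genes, and each name had 1 row. There were 4 groups of 3 libraries, all harvested at 48 h: NC+DMSO (control cells with the solvent DMSO), PTPN21+DMSO (cells overexpressing the protein tyrosine phosphatase PTPN21, with DMSO), NC+VCR (control cells with vincristine, a drug that blocks microtubule assembly) and PTPN21+VCR (overexpressing cells with vincristine). The labels call the control cells WT, whereas the study describes them as carrying a GFP vector; PTPN21 was tagged with FLAG and driven from the viral SFFV promoter of a lentiviral vector. The vincristine concentration used for these libraries was not given in the sources used here. The study's methods describe RNA sequencing only after vincristine, in control and overexpressing cells with 3 replicates per group. The DMSO groups are known here from the labels. The methods speak of independent experiments in general, but do not say that the libraries of a group came from separate cultures. If the libraries did not, the p-values measure only the spread between these libraries, which may be technical.

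MAP kinases such as ERK, JNK and p38 are switched on by phosphorylation of a threonine and a tyrosine, and the MAP kinase phosphatases switch them off again by removing both phosphates. DUSP1, DUSP2, DUSP4 and DUSP5 are nuclear enzymes whose genes are induced rapidly by growth factors or stress. DUSP6 and DUSP7 are cytoplasmic and act mainly on ERK, and DUSP10 and DUSP16 act mainly on JNK and p38. DUSP11, which acts on RNA 5′ ends, and DUSP12, which has a zinc-binding domain, belong to the same fold but are not MAP kinase phosphatases.

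What all the members share is the catalytic signature, a histidine and a cysteine followed, after 5 residues, by an arginine; the cysteine carries out the reaction. The coding sequence of that stretch is shown for 9 members, DUSP4 left out, because it is the feature that defines the family and shows where DUSP11 departs from the others. It was read from GENCODE release 29 transcripts, 5′ to 3′, with the histidine, cysteine and arginine codons in capitals.
DUSP1: CACTGCcaggcaggcatttccCGG
DUSP2: CACTGCcaggcgggtatctcgCGC
DUSP5: CACTGTgaggctgggatctccCGT
DUSP6: CATTGCttggctggcattagcCGC
DUSP7: CACTGCctggcaggcatcagcCGC
DUSP10: CACTGCcaggctggggtgtccCGC
DUSP16: CACTGTttagctgggatctccCGC
DUSP11: CACTGTacccatggtttaaacAGG
DUSP12: CACTGTcatgcaggagtcagtCGA
The histidine was codon 257 of DUSP1, codon 262 of DUSP5 and codon 243 of DUSP16. DUSP11 has an AGG arginine codon, whereas the other 8 have codons that begin with CG; both kinds encode arginine, so the residue is the same. The encoded residues differ between the cysteine and the arginine. There DUSP11 has histidine before the glycine and asparagine before the arginine, where the other 8 have alanine and serine.

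The 250 bases upstream of the start were also read, from RefSeq (GRCh38.p14), for the members with the widest range of group means on the log2 scale and an entry in the table, DUSP1 and DUSP16. Capitals mark the cyclic AMP response element TGACGTCA, the site bound by the CREB and ATF factors; both strands were searched.
DUSP1, chr5:172771196-172771445, minus strand: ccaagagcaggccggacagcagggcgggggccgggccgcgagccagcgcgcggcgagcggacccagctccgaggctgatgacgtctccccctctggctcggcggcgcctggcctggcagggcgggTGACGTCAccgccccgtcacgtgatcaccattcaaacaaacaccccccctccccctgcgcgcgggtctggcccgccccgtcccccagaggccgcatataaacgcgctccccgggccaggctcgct
DUSP16, chr12:12562864-12563113, minus strand: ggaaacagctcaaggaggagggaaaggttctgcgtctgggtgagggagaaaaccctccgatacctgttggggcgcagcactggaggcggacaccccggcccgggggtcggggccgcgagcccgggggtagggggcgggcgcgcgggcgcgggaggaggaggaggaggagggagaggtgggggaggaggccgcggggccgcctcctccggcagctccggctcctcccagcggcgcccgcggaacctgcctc
The DUSP1 window held 1 such element, which begins 125 bases before the start. The DUSP16 window held none. These letters occurred in 649 of 35116 promoter windows (1.85%). Each window searched, those of DUSP1 and DUSP16 included, also took in a short stretch after the start, which is not shown. Neither window held the AP-1 letters TGANTCA, found in 7.71% of windows, or a CArG box, the serum response element found in 1.29%.

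Some facts of the libraries stand before the results. The FPKM of PTPN21 was 7.93 to 10.5 in PTPN21+DMSO beside 0.0212 to 0.0934 in its control NC+DMSO, and 4.34 to 6.53 in PTPN21+VCR beside 0.16 to 0.569 in NC+VCR, so the overexpressing groups lay above their controls (FPKM is fragments per kilobase of transcript, scaled to the fragments of the library). The estimated depth was 14.3 to 17.9 M fragments in the 6 control libraries and 20.4 to 23.8 M in the 6 overexpressing ones, so depth and the construct cannot be told apart. Of 10 T-lymphoid markers, CD3D was high, at 61.8 to 140 FPKM over the 12 libraries, and the other 9 had a mean under 1 FPKM; LCK, CD28 and CD247 were listed at 0 in every library. All 4 epithelial markers (EPCAM, KRT8, KRT18 and KRT19) were expressed, and their summed FPKM lay between 603 and 852 with DMSO (6 libraries) and between 1680 and 2220 with VCR (6 libraries). LYZ and ITGAM, 2 of 4 myeloid markers, reached 1 FPKM, whereas none of 4 B-cell markers did and MS4A1 was at 0. Apart from CD3D, these markers go against the label, so the cells are called by it only as "labelled Jurkat"; the part of this in the DUSP results was not tested.

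Only 6 of the 10 members were expressed well enough to be tested. The filter was a mean of at least 1 FPKM over the 12 libraries, passed by 11591 genes, and the members that passed were DUSP1, DUSP5, DUSP10, DUSP11, DUSP12 and DUSP16. DUSP2 and DUSP4, both inducible nuclear phosphatases, were listed at 0 in every library. DUSP6, the cytoplasmic ERK phosphatase, was listed at 0 in 8 libraries and reached at most 0.103, in NC+VCR replicate 2. A transcript of 1 kb at 1 FPKM corresponds to 14.3 to 23.8 fragments at these depths, so such values rest on few fragments. DUSP6 also shares 1875 exonic bases with an antisense gene, AC024909.2, whose mean was 0.00875 FPKM, and whether the counting used strand is not given in the sources used here.

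DUSP7, the other cytoplasmic ERK phosphatase, lay just under the filter with a mean of 0.697 FPKM. With DMSO it was 0.672, 1.29 and 1.88 FPKM in the control cells and 0.508, 0.692 and 0.507 in the overexpressing cells. With vincristine it was 0.87, 0.236 and 0.749 in the control cells and 0.374, 0.383 and 0.216 in the overexpressing cells. Among the comparisons made, only PTPN21+VCR and PTPN21+DMSO did not overlap. In a fit without the filter, no comparison of DUSP7 passed limma's test, with adjusted p from 0.222 to 0.77.

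The atypical members were the most abundant per length. In NC+DMSO, DUSP11 was 17.9 ± 1.81 FPKM (SD, n = 3) and DUSP12 was 17.1 ± 3.04, and these neighbours overlapped. DUSP10 followed at 4.65 ± 0.998 and DUSP1 at 3.78 ± 1.02, which also overlapped. Then came DUSP16 at 1.81 ± 0.635, DUSP7 at 1.28 ± 0.602 and DUSP5 at 0.817 ± 0.352; DUSP7 overlapped both of the others, which did not overlap each other. In NC+VCR the order was DUSP12 at 17.1 ± 5.18, DUSP1 at 12.9 ± 2.31 and DUSP11 at 11 ± 0.975, then DUSP16 at 5.13 ± 1.16, DUSP10 at 5.06 ± 3.45 and DUSP5 at 3.36 ± 0.804. DUSP1 thus moved from the fourth place to the second, although its NC+VCR values overlapped those of both its neighbours.

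**Figure D1:**
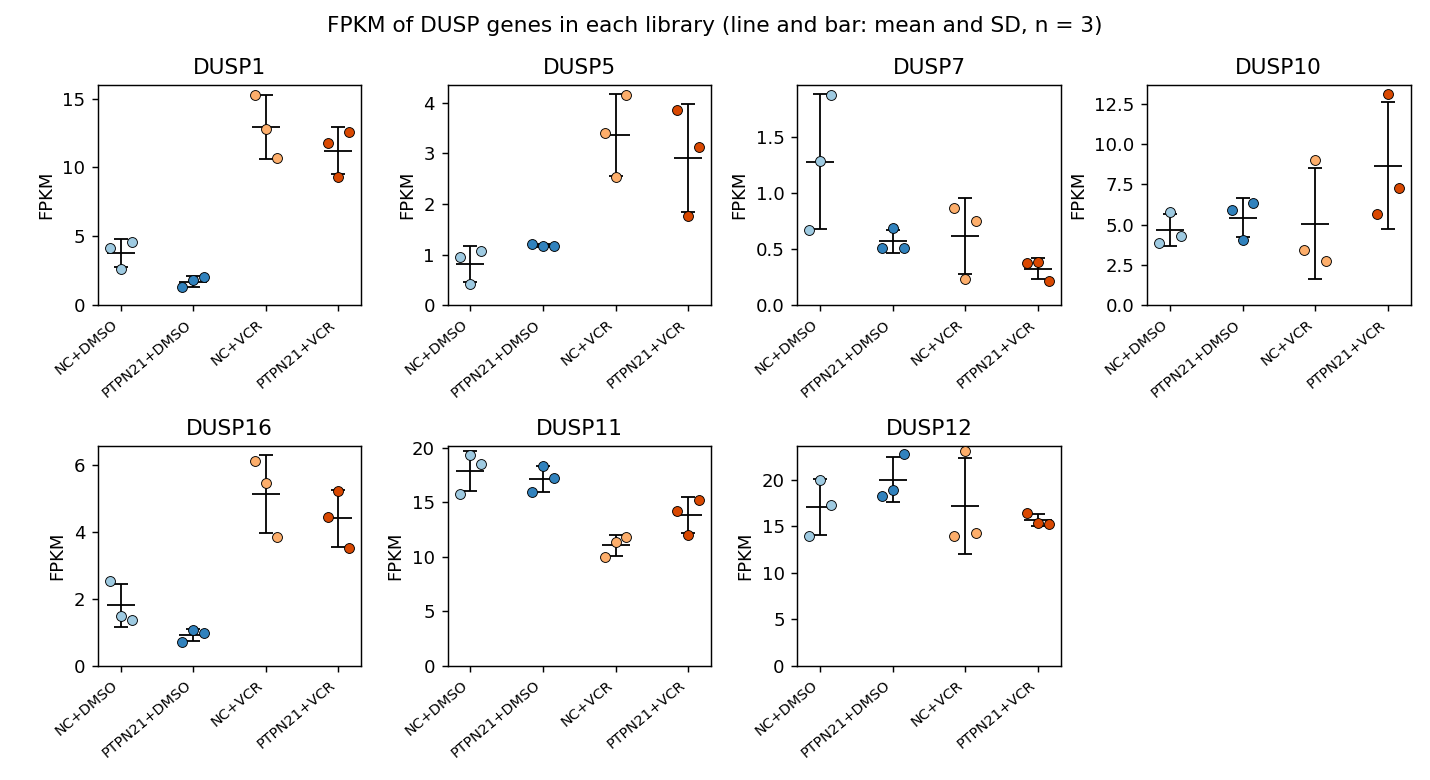
Each panel plots 1 DUSP gene, with FPKM on the y axis from 0 and the 4 groups on the x axis; points are libraries and the line with its bar is the mean and SD of 3. DUSP1, DUSP5 and DUSP16 are higher in all 6 VCR libraries than in all 6 DMSO libraries, and DUSP11 is lower in all of them. The DUSP7, DUSP10 and DUSP12 points of VCR and DMSO overlap.

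To ask how vincristine changed these genes, NC+VCR was compared with NC+DMSO. DUSP1, DUSP5 and DUSP16 rose and DUSP11 fell, while DUSP10 and DUSP12 did not pass the test. All values below come from limma on log2(FPKM + 1), adjusted over the 11591 genes with a threshold of 0.05, and fold changes on that scale understate those of low genes. Thus 3 of 6 tested members were called higher, against 7.91% of all genes tested, and 1 of 6 was called lower, against 28.3%. The filter used the mean of all 12 libraries, so a gene could pass it through the groups in which it is high. DUSP5 (0.817 FPKM in NC+DMSO, 3.36 in NC+VCR) passed it, whereas DUSP7 (1.28 and 0.619) did not. Counts of members called are therefore descriptions only, here and in the other comparisons. The median log2 fold change of all genes was -0.36, and it moved to -0.03 with median ratio scaling, so differences from that median are given as well. In bulk RNA, fewer cells of a type and less RNA per cell cannot be told apart. If the group labels made no difference, 3 libraries would still lie wholly above or wholly below 3 others with a probability of 0.1. Non-overlap of libraries is therefore given as a description, and the share of all tested genes that showed it was not counted.

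DUSP1 dephosphorylates JNK, p38 and ERK in the nucleus and is a classical immediate early gene. It was 4.15, 2.63 and 4.56 FPKM in NC+DMSO and 15.3, 12.8 and 10.7 in NC+VCR. Every treated library exceeded every control library, and the means stood in a ratio of 3.42. Its log2 fold change was 1.56 (SE 0.224, 95% interval 1.07 to 2.04, limma adjusted p = 0.000357), which is 1.92 above the median of all genes. It passed in all 10 other settings and in all 12 fits that left out 1 library.

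DUSP5 is a nuclear phosphatase selective for ERK. Its FPKM was 0.948, 0.418 and 1.08 in NC+DMSO and 3.4, 2.54 and 4.15 in NC+VCR, again without overlap. The log2 fold change was 1.27 (SE 0.257, limma adjusted p = 0.0029). Because DUSP5 is low in the controls, the log2(FPKM + 1) scale shrinks this change most, and with a pseudocount of 0.1 it was 1.98.

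DUSP16, the JNK and p38 phosphatase also called MKP-7, was 2.54, 1.5 and 1.38 FPKM in NC+DMSO and 6.11, 5.45 and 3.85 in NC+VCR. The groups did not overlap, and the ratio of means was 2.84. The log2 fold change was 1.13 (SE 0.235, limma adjusted p = 0.00334). Of the pair that shares its substrates, DUSP10 did not follow it.

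DUSP10 (MKP-5) was 3.86, 5.77 and 4.32 FPKM in NC+DMSO and 3.44, 9.02 and 2.72 in NC+VCR. One treated library, replicate 2, lay above all controls and the other two lay below them all. The log2 fold change was -0.03 with a 95% interval of -0.83 to 0.78 (limma adjusted p = 0.96), an interval wide enough to hold a change of the size seen for DUSP11. Its sign changed with the scaling and with the library left out, so no direction is given.

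DUSP11 was 15.8, 19.3 and 18.5 FPKM in NC+DMSO and 9.94, 11.4 and 11.8 in NC+VCR, with every treated library lower. Its log2 fold change was -0.65 (SE 0.149, limma adjusted p = 0.00574), only 0.29 below the median of all genes. The call did not hold with median ratio scaling (-0.27, adjusted p = 0.22) or with quantile normalization (-0.31, adjusted p = 0.168); over the 10 other settings the adjusted p ran from 0.00283 to 0.22.

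DUSP12 was 14.0, 20 and 17.3 FPKM in NC+DMSO and 14.0, 23.1 and 14.3 in NC+VCR, which overlapped. The log2 fold change was -0.02 (95% interval -0.45 to 0.41, limma adjusted p = 0.945). As for DUSP10, NC+VCR replicate 2 was the highest of its group, and the sign of the change depended on the scaling.

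**Figure D2:**
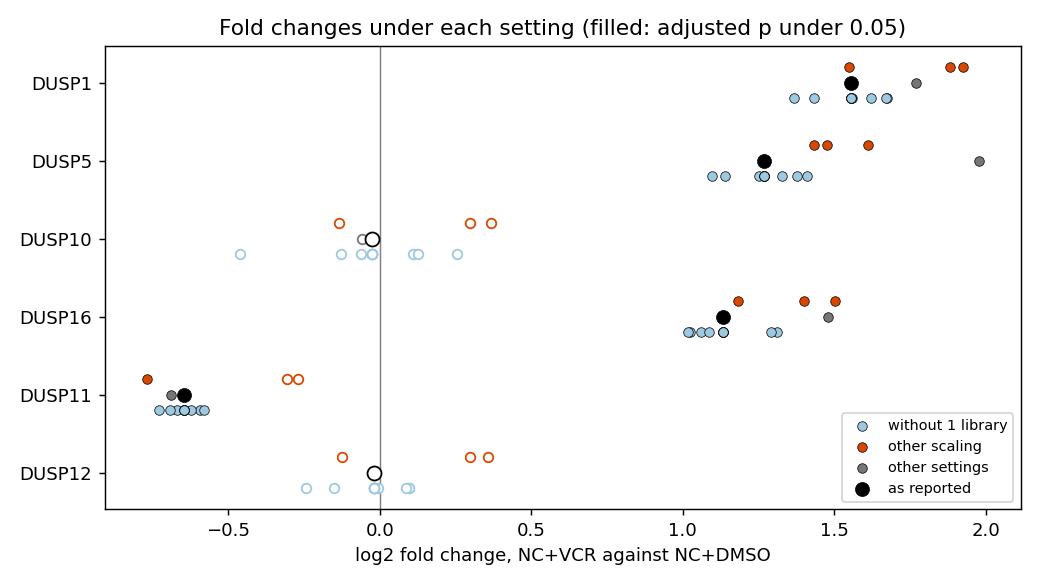
The x axis is the log2 fold change of NC+VCR against NC+DMSO for each of the 6 tested DUSP genes; each point is a setting, filled where the adjusted p is under 0.05. DUSP1, DUSP5 and DUSP16 stay filled and positive in every setting drawn, DUSP11 loses its fill with 2 of the other scalings, and DUSP10 and DUSP12 fall on both sides of 0.

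In cells overexpressing PTPN21, the same 3 genes were called higher with vincristine and none was called lower. PTPN21+VCR against PTPN21+DMSO gave 3 of 6 members higher, where 9.22% of all genes tested were, and 0 of 6 lower, where 19.3% were. None of the 6 had a negative change with an unadjusted limma p under 0.05. In either direction, 4628 of the 11591 genes tested had such a p. The median log2 fold change of all genes was -0.17. The FPKM of DUSP1 was 1.28, 1.85 and 2.01 with DMSO and 11.8, 9.28 and 12.6 with vincristine, a ratio of means of 6.57. These groups lay far apart, and the log2 fold change was 2.17 (SE 0.224, 95% interval 1.69 to 2.66, limma adjusted p = 3.66e-05).

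DUSP16 was 0.713, 1.07 and 0.97 FPKM in PTPN21+DMSO and 4.46, 5.22 and 3.53 in PTPN21+VCR. There was no overlap, and the log2 fold change was 1.49 (SE 0.235, limma adjusted p = 0.000734). DUSP5 was 1.21, 1.17 and 1.16 FPKM in PTPN21+DMSO and 3.87, 1.76 and 3.12 in PTPN21+VCR. The libraries did not overlap here either, but replicate 2 of PTPN21+VCR lay closer to the DMSO libraries than to the other 2 treated ones. The log2 fold change of DUSP5 was 0.81 (SE 0.257, limma adjusted p = 0.0343), a call near the threshold. It was kept in only 7 of the 12 fits without 1 library, over which the log2 fold change ran from 0.63 to 1.04. Without PTPN21+DMSO replicate 1, 2 or 3 its adjusted p was 0.0782, 0.0818 and 0.0863, without PTPN21+VCR replicate 1 it was 0.133, and without PTPN21+VCR replicate 3 it was 0.0971; over the 12 such fits it ran from 0.0161 to 0.133. It was also 0.0518 with a pseudocount of 0.1 and 0.0776 without the filter, in a range of 0.00744 to 0.0776 over 9 other settings.

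The other members did not pass in the overexpressing cells. DUSP10 was 5.91, 4.03 and 6.35 FPKM with DMSO and 5.64, 13.1 and 7.25 with vincristine, with overlap (log2 fold change 0.53, 95% interval -0.27 to 1.34, limma adjusted p = 0.309). DUSP11 was 15.9, 18.3 and 17.2 FPKM with DMSO and 14.2, 12 and 15.2 with vincristine, all lower (log2 fold change -0.30, 95% interval -0.62 to 0.02, limma adjusted p = 0.154). DUSP12 was 18.3, 18.9 and 22.8 FPKM with DMSO and 16.4, 15.4 and 15.2 with vincristine, also without overlap (log2 fold change -0.33, 95% interval -0.77 to 0.10, limma adjusted p = 0.24). For these last 2 genes the libraries separated, but by no more than the adjusted test allows for.

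**Figure D3:**
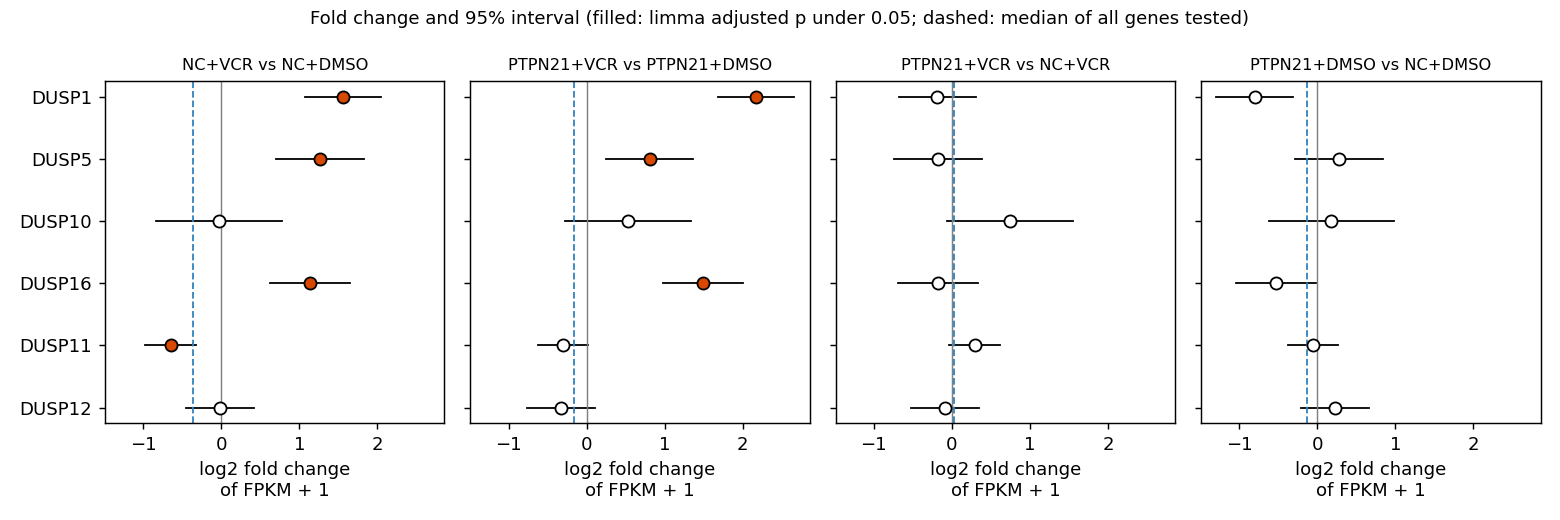
The x axis is the log2 fold change of FPKM + 1 with its 95% interval, 1 panel per comparison and 1 line per DUSP gene; filled points have a limma adjusted p under 0.05, and the dashed line is the median of all 11591 genes. The filled points all stand in the 2 panels of vincristine against DMSO; the DUSP11 interval for NC+VCR against NC+DMSO, -0.97 to -0.32, reaches the dashed line at -0.36.

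Whether PTPN21 overexpression altered these genes under vincristine was asked by comparing PTPN21+VCR with NC+VCR. No member passed: 0 of 6 were called higher, where 1.00% of all genes tested were, and 0 of 6 lower, where 0.820% were. No member had an unadjusted limma p under 0.05, where 1980 of the 11591 genes tested did. DUSP1 differed by -0.18 on the log2 scale (95% interval -0.67 to 0.30, limma adjusted p = 0.727), and DUSP5 and DUSP16 by -0.18 each (limma adjusted p = 0.78 and 0.759). Their libraries overlapped. DUSP10 had the largest difference, 0.74 with a 95% interval of -0.06 to 1.55 (limma adjusted p = 0.336), and its libraries overlapped as well. The DUSP10 difference rested on single libraries: it was 0.43 without PTPN21+VCR replicate 2 and 1.18 without NC+VCR replicate 2. DUSP11 was higher in all 3 overexpressing libraries than in all 3 controls, by 0.29 (95% interval -0.03 to 0.61, limma adjusted p = 0.346). DUSP12 differed by -0.09 (95% interval -0.52 to 0.35, limma adjusted p = 0.874).

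Without the drug, DUSP1 came nearest to the threshold. PTPN21+DMSO against NC+DMSO gave 0 of 6 members higher, where 2.65% of all genes tested were, and 0 of 6 lower, where 3.69% were. Among the members, 2 of 6, DUSP1 and DUSP16, had an unadjusted limma p under 0.05. So did 2968 of the 11591 genes tested, so that count is not read as a result about the members. All 3 overexpressing libraries had less DUSP1 than all 3 controls, with a ratio of means of 0.453. On the log2 scale the change was -0.80 (SE 0.224, 95% interval -1.29 to -0.32, limma adjusted p = 0.0533). It passed with a pseudocount of 0.1 (-1.09, adjusted p = 0.0405), with a minimum of 5 FPKM (-0.80, adjusted p = 0.0404), with each column rescaled to TPM (a constant column sum) (-1.03, adjusted p = 0.033) and without NC+DMSO replicate 2 (-0.99, adjusted p = 0.0222). Over 10 other settings the adjusted p ran from 0.033 to 0.108, and over the 12 fits without 1 library from 0.0222 to 0.201. The change was therefore at the edge of what 3 libraries per group resolve.

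DUSP16 was likewise lower in all 3 PTPN21+DMSO libraries, with a log2 fold change that did not pass (-0.53, 95% interval -1.04 to -0.02, limma adjusted p = 0.18). DUSP5 had a higher FPKM in all 3 overexpressing libraries, but its log2 fold change of 0.28 did not pass (95% interval -0.28 to 0.84, limma adjusted p = 0.529). DUSP10 (0.18), DUSP11 (-0.06) and DUSP12 (0.23) had overlapping libraries and limma adjusted p from 0.515 to 0.848. The DMSO libraries of the overexpressing cells were also the deepest, as given above, and the part of depth in these values was not tested.

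The difference between the 2 vincristine responses was tested as an interaction, the response of the overexpressing cells minus that of the controls. For no member did it pass: 0 of 6 were called higher, where 0.0259% of all genes tested were, and 0 of 6 lower, where 0.104% were. No member had an unadjusted limma p under 0.05, where 1624 of the 11591 genes tested did. For DUSP1 the interaction was 0.62 on the log2 scale (95% interval -0.07 to 1.31, limma adjusted p = 0.396). For DUSP5 it was -0.46 (95% interval -1.25 to 0.33) and for DUSP16 it was 0.36 (95% interval -0.37 to 1.08), with limma adjusted p of 0.579 and 0.642. DUSP10, DUSP11 and DUSP12 gave 0.56, 0.35 and -0.31, with limma adjusted p from 0.464 to 0.642. These intervals do not show equal responses; they leave room for differences of about the size of the DUSP16 response itself.

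The 8 MAP kinase phosphatases were also summed, as a description. Their summed FPKM was 12.2, 11.6 and 13.2 in NC+DMSO and 9.61, 8.82 and 11 in PTPN21+DMSO. It was 29.2, 30.1 and 22.2 in NC+VCR and 26.2, 29.7 and 26.7 in PTPN21+VCR. Each VCR library lay above each DMSO library. DUSP1 supplied 30.4% ± 6.7 (SD, n = 3) of the sum in NC+DMSO and 47.8% ± 5.13 in NC+VCR, and 17.5% ± 3.91 in PTPN21+DMSO and 41.2% ± 8.7 in PTPN21+VCR. DUSP10 supplied 38% ± 10.1 in NC+DMSO and 55.0% ± 8.25 in PTPN21+DMSO. It was the largest contributor in all 3 PTPN21+DMSO libraries, but in NC+DMSO only in replicate 2 (49.7% beside 22.7% for DUSP1); in replicates 1 and 3 DUSP1 supplied more (34.1% and 34.5% beside 31.7% and 32.7%). With vincristine it supplied 18.0% ± 10.4 and 30.9% ± 11.8, and in PTPN21+VCR replicate 2, at 44.1%, it was the largest. The summed FPKM of DUSP11 and DUSP12 was 35.0 ± 4.8 and 37.2 ± 2.85 with DMSO, in control and overexpressing cells, and 28.2 ± 5.59 and 29.4 ± 1.85 with vincristine. No test was run on these sums and shares.

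**Figure D4:**
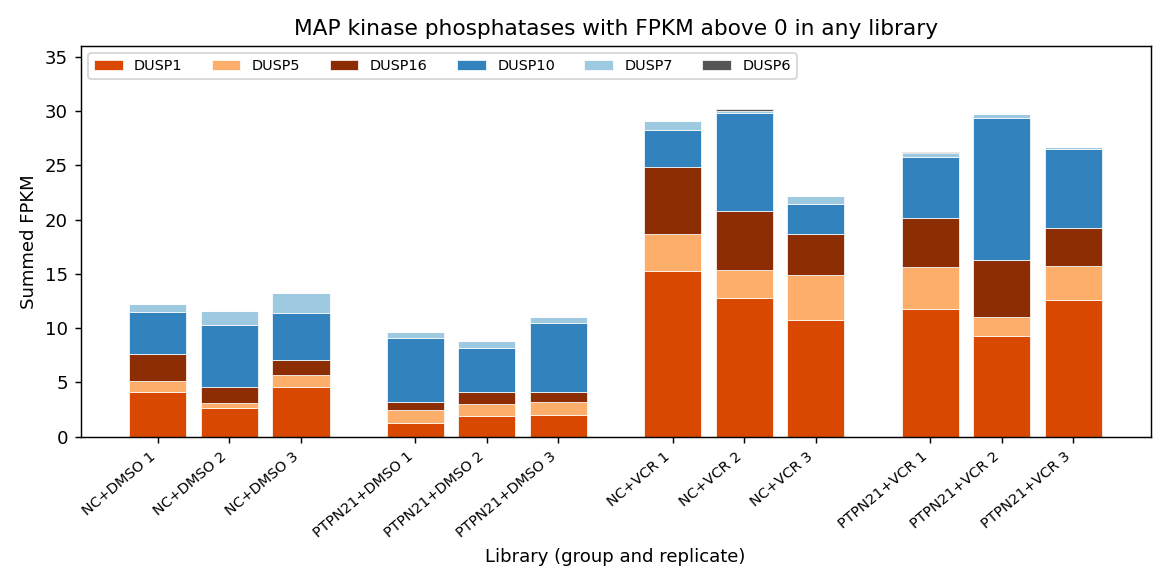
Stacked bars give the FPKM of DUSP1, DUSP5, DUSP16, DUSP10, DUSP7 and DUSP6 in each of the 12 libraries, with summed FPKM on the y axis from 0; DUSP2 and DUSP4 were at 0. The VCR bars are 22.2 to 30.1 high and the DMSO bars 8.82 to 13.2, and the DUSP1, DUSP5 and DUSP16 segments make up 79.5% of the NC+VCR bars on average and 51.7% of the NC+DMSO bars.

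DUSP1 and DUSP16 had similar profiles over the 12 libraries, with a Pearson r of 0.95 on the log2 scale. Within the 6 DMSO libraries r was 0.81, and within the 6 VCR libraries it was 0.32. DUSP1 and DUSP5 gave 0.83 over all 12, but -0.25 within DMSO and 0.42 within VCR. The genes outside the family with the profile most like that of DUSP1 were CEP55, AP001531.1 and MAPRE1 (r = 0.98, 0.975 and 0.974). Those most like DUSP16 were NRBF2, CHMP5 and NFIL3 (r = 0.981, 0.976 and 0.968), and those most like DUSP5 were IL20RB, YPEL4 and AC093673.1 (r = 0.942, 0.937 and 0.932). Within the 6 VCR libraries the r of NRBF2 with DUSP16 was 0.87 and that of CEP55 with DUSP1 was 0.38, whereas that of AP001531.1 with DUSP1 was -0.50. All of these are descriptions over libraries that share 2 treatments and differ in depth.

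The kinases that these phosphatases act on, and their upstream activators, held no gene called higher with vincristine in the values as deposited. Some of these genes were called higher under 2 of the other scalings, and more were called lower with TPM in NC+VCR against NC+DMSO. In the ERK module, the kinases ARAF (-0.96) and BRAF (-0.94) and the adaptor GRB2 (-0.73) fell in NC+VCR against NC+DMSO, where the median of all genes was -0.36. Of 14 genes tested in this list, 4 were called lower there, not all of them named here. That share lies near the 28.3% of all genes tested that were called lower. With TPM, 7 of 14 were called lower there, where 4553 of all genes were called, 16.3% of them higher. BRAF and GRB2 lost their calls with median ratio scaling and quantile normalization, and ARAF did not. ARAF and BRAF also fell in PTPN21+VCR against PTPN21+DMSO (-0.64 and -0.76), but not past the threshold with those 2 scalings. They were 2 of 14 tested, where 19.3% of all genes tested were called lower. The ERK kinase MAP2K1 was called higher in both comparisons with those scalings (0.61 to 0.82). No gene of this list passed in PTPN21+VCR against NC+VCR or in the interaction.

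Of 15 genes of the JNK and p38 module, 9 were tested, and 2 fell with vincristine in each background, shares that lie near the 28.3% and 19.3% of all genes called lower. MAPK12, the p38 gamma kinase, fell by 1.46 in the control cells and by 1.54 in the overexpressing cells on the log2 scale (limma adjusted p = 0.000652 and 0.000547). MAP2K7, which activates JNK, fell by 0.84 and 0.78, but not past the threshold with median ratio scaling or quantile normalization. MAPK14 was called lower only with TPM, in NC+VCR against NC+DMSO (-0.98, limma adjusted p = 0.0456). The upstream kinase MAP3K4 was called higher with median ratio scaling in both backgrounds (0.57 and 0.63) and with quantile normalization in the overexpressing cells (0.66), and MAP3K7 with both scalings in the overexpressing cells (0.78 and 0.80). The list medians were -0.50 and 0.24, and no gene of the list passed in the other 3 comparisons.

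Genes that ERK signaling induces, including its feedback inhibitors, moved in both directions. In NC+VCR against NC+DMSO, of 14 tested among 18, IER3 rose (0.79), whereas CCND1, SPRY2, IER2, SPRED1, ETV4 and ETV5 fell, by 0.75 to 1.98. Of all genes tested, 7.91% were called higher and 28.3% lower in that comparison. SPRY2 and SPRED1, which are feedback inhibitors like DUSP6, lost their calls with median ratio scaling and quantile normalization. In PTPN21+VCR against PTPN21+DMSO, IER3 (1.29), PHLDA1 (2.58) and IER2 (1.33) rose, and CCND1, ETV4 and ETV5 fell, where 9.22% of all genes were called higher and 19.3% lower. ETV5 lost this call with median ratio scaling (-0.50) and quantile normalization (-0.47). IER2, like DUSP1 an immediate early gene, was the 1 gene of this list with an interaction, of 3.31 (SE 0.365, limma adjusted p = 0.00215); it fell in PTPN21+DMSO against NC+DMSO (-2.04) and was higher in PTPN21+VCR than in NC+VCR (1.27).

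Among 20 other dual-specificity phosphatases, 17 were in the table and 6 passed the filter. STYXL1 rose (0.50) and STYX fell (-0.82) in NC+VCR against NC+DMSO, and STYX fell (-0.62) in PTPN21+VCR against PTPN21+DMSO. Both are pseudophosphatases, which have lost catalytic activity. In the first comparison 1 of 6 was higher and 1 of 6 lower, where 7.91% and 28.3% of all genes tested were. In the second 0 of 6 were higher and 1 of 6 lower, where 9.22% and 19.3% of all genes tested were. None of these 3 calls held under every scaling: STYXL1 was lost with TPM, and STYX with median ratio scaling and quantile normalization in both comparisons and with TPM in the second; DUSP14 gained a lower call with TPM in the first (-0.68). The epithelial markers moved with the same treatment as DUSP1, DUSP5 and DUSP16: KRT8, KRT18 and KRT19 were called higher with vincristine in both backgrounds and EPCAM in neither as deposited, though in both with median ratio scaling and quantile normalization, and CD3D rose in NC+VCR against NC+DMSO and in PTPN21+DMSO against NC+DMSO. Their part in the DUSP results was not tested.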

How the data were processed

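Per the labels, RNA was extracted with TRIzol and the libraries were sequenced and processed by a company; the study's methods call the assay digital gene expression tag profiling. The submitters' processing notes name fastp, Bowtie2 and the build mm10, a mouse build, although the identifiers are human. The counter and annotation are not given in the sources used here. The authors deposited 1 table of FPKM values, in which comparisons between genes assume that reads cover whole transcripts.

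From these, limma 3.58.1 (R 4.3.3, intensity trend, log2(FPKM + 1), 1 model of the 4 group means, Benjamini-Hochberg over 11591 genes with a mean of at least 1 FPKM, threshold 0.05) was run for 5 comparisons and checked on simulated data. The simulated data had independent noise and far fewer changed genes than were called with vincristine, so that check does not bear on the calls given here. The members and lists were chosen with earlier results of these data known. For the ERK module, only part of the list is reported here. Named genes were every member, PTPN21, the called genes of lists where 5 or fewer were counted (the 6 that fell in the ERK target list, and genes called only under another scaling, were added after their values were seen), and the 3 genes most correlated with each of the 3 members of widest range.

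Positions and transcripts were from GENCODE release 29 (GRCh38), which held 58453 (96.3%) of the identifiers. Depth was estimated from 8569 single-exon genes, from the spacing of low FPKM values multiplied by length; the search, 12 to 30 M fragments, was narrowed after 1 library settled on a smaller value. Within 0.1 of a whole step lay 30.6% to 42.1% of low values, where chance gives 20%, so depths are approximate. Replicates correlated at r = 0.939 to 0.976. Same-numbered replicates did not deviate together (18 pairs, r = -0.145 to 0.0583).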

Additional observations from a re-analysis of the deposited data

How the results depend on the processing

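The calls of DUSP1, DUSP5 and DUSP16 in NC+VCR against NC+DMSO, and of DUSP1 and DUSP16 in PTPN21+VCR against PTPN21+DMSO, kept their direction and side of the threshold in every setting in which the gene was tested. Of the members' fold changes under other settings, 271 kept direction and call, 4 lost the call, 3 gained it and 6 changed sign; without 1 library, 346 kept both, 5 lost the call, 1 gained it and 8 changed sign. Where no cause is named, the cause was not tested.

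Signs changed for DUSP10 in NC+VCR against NC+DMSO with median ratio scaling (0.30) and quantile normalization (0.37), and without 1 library (-0.46 to 0.26). They changed for DUSP12 in the same comparison with those scalings (0.36 and 0.30) and without 1 library (-0.24 to 0.10), and in PTPN21+VCR against NC+VCR without 1 library (-0.20 to 0.14). DUSP11 in PTPN21+DMSO against NC+DMSO became 0.13 and 0.11 with the same scalings, and DUSP5 in PTPN21+VCR against NC+VCR ran from -0.36 to 0.055 without 1 library.

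With a minimum of 5 FPKM, at which 4 members were tested, 2 in place of 4 members passed in NC+VCR against NC+DMSO and 1 in place of 3 in PTPN21+VCR against PTPN21+DMSO, since DUSP5 and DUSP16 are below it. Without 1 library these counts were 4 to 4 and 2 to 3. In PTPN21+DMSO against NC+DMSO, 1 member passed with a pseudocount of 0.1, the 5 FPKM minimum or TPM, and 0 to 1 without 1 library; the remaining comparisons gave 0 to 0.

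Of all genes, 4192 passed in NC+VCR against NC+DMSO, 2672 with only those groups fitted and 3224 to 4024 without 1 library. For PTPN21+VCR against PTPN21+DMSO it was 3308, and 2353 to 3619 without 1 library. In the comparison of PTPN21+DMSO with NC+DMSO 735 passed, then 177 without the filter, 321 without the trend, 242 with the replicate block, 43 with only those groups, and from 67, with PTPN21+DMSO replicate 1 left out, up to 1345, with NC+DMSO replicate 2 left out. For PTPN21+VCR against NC+VCR it was 211, then 118 without the filter, 344 at 5 FPKM, 130 with median ratio scaling, 72 without the trend, 74 with the replicate block, 138 with only those groups, and from 43, with PTPN21+VCR replicate 2 left out, up to 354, with NC+DMSO replicate 3 left out. For the interaction it was 15, then 8 without the filter, 8 at 5 FPKM, 9 without the trend, 8 with the replicate block and 7 to 30 without 1 library. The replicate block changed no member's call.

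Scaling moved the share of calls that were higher: in NC+VCR against NC+DMSO from 21.9% to 56.5% with median ratio scaling and 52.5% with quantile normalization; in PTPN21+VCR against PTPN21+DMSO from 32.3% to 51.2% and 51.6%; in PTPN21+DMSO against NC+DMSO from 41.8% to 76% and 54.5%, and to 21% with TPM; in PTPN21+VCR against NC+VCR from 55% to 43.8% with median ratio scaling; and in the interaction from 20% to 36.4% with TPM.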

Other observations

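DUSP8 and DUSP9, the remaining MAP kinase phosphatases, lay under the filter of 1 FPKM and are given after their values were seen. DUSP8, a JNK and p38 phosphatase like DUSP16, was listed at 0 in 5 of the 6 DMSO libraries and at 0.0573 FPKM in NC+DMSO replicate 2. It was 0.893, 0.46 and 0.791 FPKM in NC+VCR and 0.982, 0.545 and 0.534 in PTPN21+VCR, so every VCR library lay above every DMSO library. In limma without the filter, over 28170 genes, its log2 fold changes were 0.74 (SE 0.122, adjusted p = 0.00402) in the control cells and 0.74 (SE 0.122, adjusted p = 0.00467) in the overexpressing cells. A pseudogene of it, DUSP8P5, had a mean of 0.853 FPKM, and how reads common to both were assigned is not given in the sources used here. DUSP9 was 0.568 to 1.94 FPKM in the 6 DMSO libraries. It was listed at 0, 0 and 1.67 FPKM in NC+VCR and 0.15, 0.0739 and 0.146 in PTPN21+VCR, and neither vincristine comparison passed (adjusted p = 0.512 and 0.156).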
